A study of Mus musculus with 20 samples.

Results

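Cytosolic ribosomal proteins were examined at the RNA level in the livers of 20 female wild-type C57BL/6 mice (C57BL/6J in the methods of the study), 8 weeks old according to the sample labels. Genes were taken by symbol alone: every gene named Rpl, Rps or Rplp with a number, with or without a closing letter and digit, in a table that lists rows marked as pseudogenes (-ps) under other names. This rule gave 87 of 48440 genes, and no measured value entered it. Mice received corticosterone (CORT, the main glucocorticoid of rodents) or its vehicle in the drinking water for 5 weeks, together with intraperitoneal injections of a monoclonal antibody against acyl-CoA-binding protein (αACBP) or of the IgG2a isotype antibody. Each of the 4 groups held 5 livers, 1 per mouse: Isotype + Vehicle and αACBP + Vehicle without the hormone, and Isotype + CORT and αACBP + CORT with it, and RNA of the whole frozen tissue was sequenced. The comparisons ask whether CORT, the antibody or both moved these genes, and whether CORT acted differently on them in mice given the antibody.

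Ribosomes consist of a small subunit, which reads the messenger RNA, and a large subunit, which joins the amino acids. Each carries a set of proteins encoded by Rps and Rpl genes, and the P stalk of the large subunit (Rplp0, Rplp1 and Rplp2) recruits the factors that drive elongation. In hepatocytes, which secrete most plasma proteins, these transcripts are abundant. Messenger RNAs of ribosomal proteins begin with a run of pyrimidines, the 5' terminal oligopyrimidine tract, through which the kinase complex mTORC1 and the protein LARP1 control their translation. The genome also holds many processed copies of these genes, so that reads cannot always be assigned to the parent gene.

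Counts on genes summed to between 14934926 and 20299999 per liver, and 3 counts at the lowest total are 0.201 CPM (counts scaled to a common library size, with TMM factors, which assume that most genes do not differ), a floor that covers counting error only. TMM factors lay between 0.88 and 1.29. Replicate 5 of αACBP + Vehicle had the highest factor, the next being 1.08, and the lowest mean correlation of log2 CPM with the other livers (0.81, against 0.841 or more). All 10 hepatocyte markers were detected in every group, with summed levels between 41900 and 146000 CPM, the lowest in that same liver. For comparisons that use it, medians over all tested members and medians of the gene lists are given with and without it. Values for subsets of members (by role, promoter match, shared words or length) and for most single genes are given only with it included.

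Of the 87 genes, 83 are annotated as protein coding. The other 4 are Rpl6l, Rps3a2, Rps3a3 and Rps12l1, annotated as processed pseudogenes in the GENCODE M39 annotation of GRCm39. There were 76 core subunits, 46 of the large subunit with the P stalk and 30 of the small one, and 7 paralogs (copies that differ from a core subunit in sequence and often in tissue). The genes lie on 19 chromosomes, 15 of them on chromosome 7. The filter on low counts left 82, and Rps3a2, Rps3a3, Rps12l1, Rpl10l and Rpl39l were not tested. Counts on Rpl10l and Rpl39l, paralogs known from the testis, were 0 in all 20 livers.

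The ribosomal proteins took between 1.44% and 2.06% of the gene counts of a liver. Rps2, a small subunit protein near the channel through which messenger RNA enters, had the most counts (209910 over the 20 livers) and ranked 204th of 16071 genes tested. Levels of different genes are compared here only per kilobase of spliced transcript, with untranslated ends trimmed. On that scale the core subunits had a median of 373 CPM per kilobase, and their 90th percentile (651) was 3.57 times their 10th (183). The median was 379 for the large subunit with the stalk and 369 for the small subunit. The 5 highest were Rpl41 (1342 CPM per kilobase), which encodes the smallest protein of the ribosome, the stalk gene Rplp1 (1170), Rps18 (1028), Rpl28 (976) and Rpl36 (839).

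**Figure D1:**
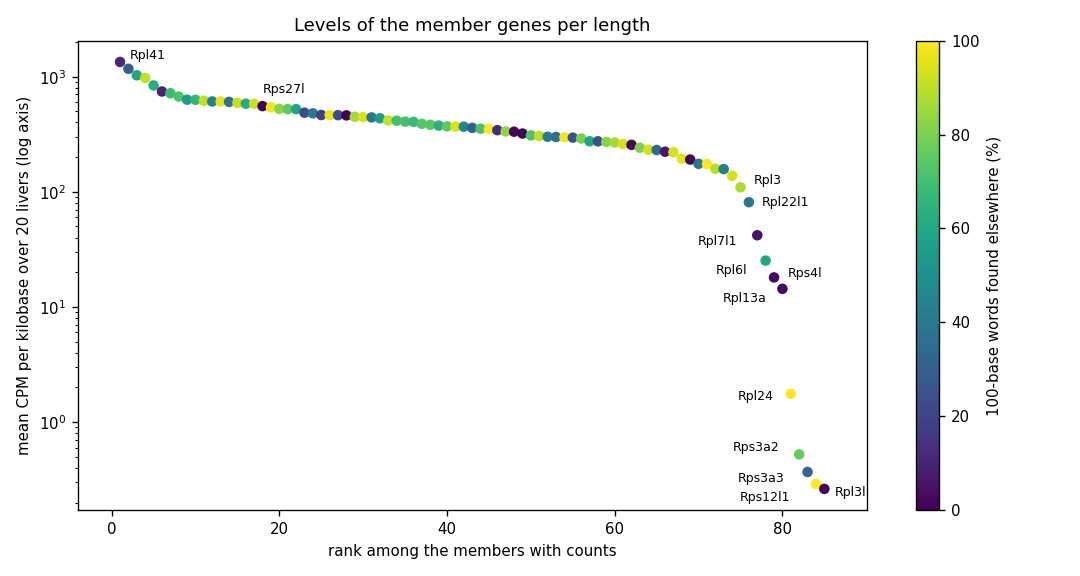
Mean level over the 20 livers in CPM per kilobase (log axis) of each ribosomal protein gene with counts, by rank, coloured by the percentage of its spliced 100-base words that occur elsewhere in GRCm39. Most core subunits lie between 183 and 651 CPM per kilobase, and Rpl13a at 14.4 and Rpl24 at 1.76 fall below all other core subunits.

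Some core subunits were far below the rest. Rpl24, a large subunit protein, had 337 counts over the 20 livers (1.76 CPM per kilobase), and Rpl13a, which also acts off the ribosome in translational silencing, had 3512 (14.4 CPM per kilobase). All spliced 100-base words of Rpl24 (100%) occur at other places in the genome, as do those of Rpl5 (100%, at 174 CPM per kilobase). Of Rpl13a only 2.30% do, and other genes on the same strand overlap 33.0% of its exon bases. For Rpl24 the overlap was 41.1%, and the next highest of the core subunits after these was Rps10 (14.9%). The part of read assignment in the levels of Rpl24 and Rpl13a was not tested. Over the core subunits the median of shared words was 69.3%. Of all 87 genes, 52 shared over 50% and 14 under 10%. The 8 core subunits under 10% had a median of 288 CPM per kilobase, against 389 for the 49 over 50%. Rows marked as pseudogenes numbered 274 and held 124790 counts, or 1.97% of those on the ribosomal proteins.

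Paralogs were mostly below their partners per kilobase. Rpl3l, known from heart and skeletal muscle, had 117 counts in all, with 0 in 10 livers, and stood at 0.263 CPM per kilobase beside 109 for Rpl3. Rps4l (18 ± 7.2 CPM per kilobase, SD over 20 livers) was below Rps4x (157 ± 55) in each of the 20, and Rpl7l1 (41.9 ± 11) was below Rpl7 (368 ± 85). Rpl22l1 reached a median of 0.319 times the level of Rpl22. Rps27l, known as a target of p53, was the exception: at 555 ± 120 CPM per kilobase it stood above Rps27 (368 ± 74) in 19 of 20 livers, by a median of 1.52 times and at most 2.03 times. No word of Rps27l occurs elsewhere (0%), while 94.1% of those of Rps27 do.

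Sequence around the start of transcription was taken from RefSeq promoters (GRCm38.p6), where 62 of the 87 genes had an entry. The windows below run from 10 bases before the annotated start to the 20th base from it, 5' to 3' on the strand of the gene, for the gene that passed the test in a comparison (Rpl39), for others at the ends of the comparisons and for 3 of the highest levels. Capitals mark the unbroken run of C and T that holds the start base, and a window without capitals has a purine at the annotated start.
Rpl39 (chrX:37085203-37085232, minus strand): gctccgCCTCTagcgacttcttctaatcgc
Rpl38 (chr11:114668570-114668599, plus strand): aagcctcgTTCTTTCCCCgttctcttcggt
Rpl36a (chrX:134585644-134585673, plus strand): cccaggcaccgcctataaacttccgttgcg
Rps3a1 (chr3:86142649-86142678, minus strand): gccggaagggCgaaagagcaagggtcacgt
Rpl4 (chr9:64173377-64173406, plus strand): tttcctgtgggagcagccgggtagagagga
Rpl41 (chr10:128549149-128549178, minus strand): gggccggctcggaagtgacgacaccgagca
Rpl28 (chr7:4792955-4792984, plus strand): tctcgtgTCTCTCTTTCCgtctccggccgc
Rps18 (chr17:33955646-33955675, minus strand): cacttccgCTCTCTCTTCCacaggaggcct
The run covers 11 bases in Rpl28 and Rps18, 10 in Rpl38 and 5 in Rpl39. Annotated starts need not be those used in liver.

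A C at the annotated start followed by at least 4 bases that are C or T was found in 13 of the 62 genes (21%), against 3.01% of 27025 genes with an entry. A C followed by 5 such bases anywhere in the window was found in 36 of 62 (58.1%), against 24.9%. In the 300 bases of each entry, searched on both strands, CCGGAAG, the site of ETS factors such as GABP, was present in 40.3% of the ribosomal protein genes and 9.93% of all genes. CTTTCC was present in 51.6% against 29.3%, AAGATGGC, the core of YY1 sites, in 9.68% against 3.19%, GGGCGG, the box bound by SP1, in 61.3% against 38.2%, and TATAAA in 11.3% against 15.7%. A match is a description of these letters and not a tested site. For αACBP with isotype under vehicle, the 35 tested genes with the wider match had a median log2 fold change of -0.19 and the 25 without it -0.32. For CORT with vehicle under αACBP the medians were 0.26 and 0.31.

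Within groups the ribosomal proteins moved together from liver to liver. Over the 76 core subunits, pairs of genes had a median correlation of 0.662 in their deviations from the group means, and 94.5% of pairs were positive. Among 954 other genes at or above 141 CPM, with no upper limit, the median was 0.085. These correlations share libraries and scaling and are given as a description of 20 livers; without replicate 5 of αACBP + Vehicle they were 0.514 and 0.067. Rpl13, Rps9 and Rps16 followed the mean of the other core subunits most closely (correlations of 0.975, 0.944 and 0.936). At the other end stood Rpl21 (-0.355), Rpl24 (0.0623), Rpl13a (0.103) and Rpl14 (0.119). These genes were chosen after their values were seen. In αACBP + Vehicle, Rpl13 was at 313, 326, 289, 303 and 201 CPM, so that its last liver stood below the others as the mean did. Rpl21, a large subunit protein, was at 295, 268, 253, 254 and 245 CPM in the same livers, and in Isotype + CORT at 211, 289, 272, 216 and 134 CPM. Its lowest liver there, replicate 5, is the one in which the mean of the ribosomal proteins was highest.

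The mean level of the 82 genes in a liver, as log2 CPM minus each gene's own mean over the 20 livers, ran from -0.233 to 0.257 in Isotype + Vehicle and from -0.222 to 0.286 in Isotype + CORT. In αACBP + CORT it ran from -0.0806 to 0.269. In αACBP + Vehicle 4 livers lay close together, between -0.0435 and -0.0206, and replicate 5 was at -0.772, below all others. There only 2 of 82 genes exceeded their own mean, whereas 81 of 82 did in replicate 3 of Isotype + Vehicle and in replicate 1 of αACBP + CORT. The share of gene counts, which TMM does not enter, was 1.9% ± 0.16 (SD, n = 5) in Isotype + Vehicle, 1.73% ± 0.14 in Isotype + CORT, 1.78% ± 0.2 in αACBP + Vehicle and 1.92% ± 0.12 in αACBP + CORT. The 4 groups overlapped in both measures.

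**Figure D2:**
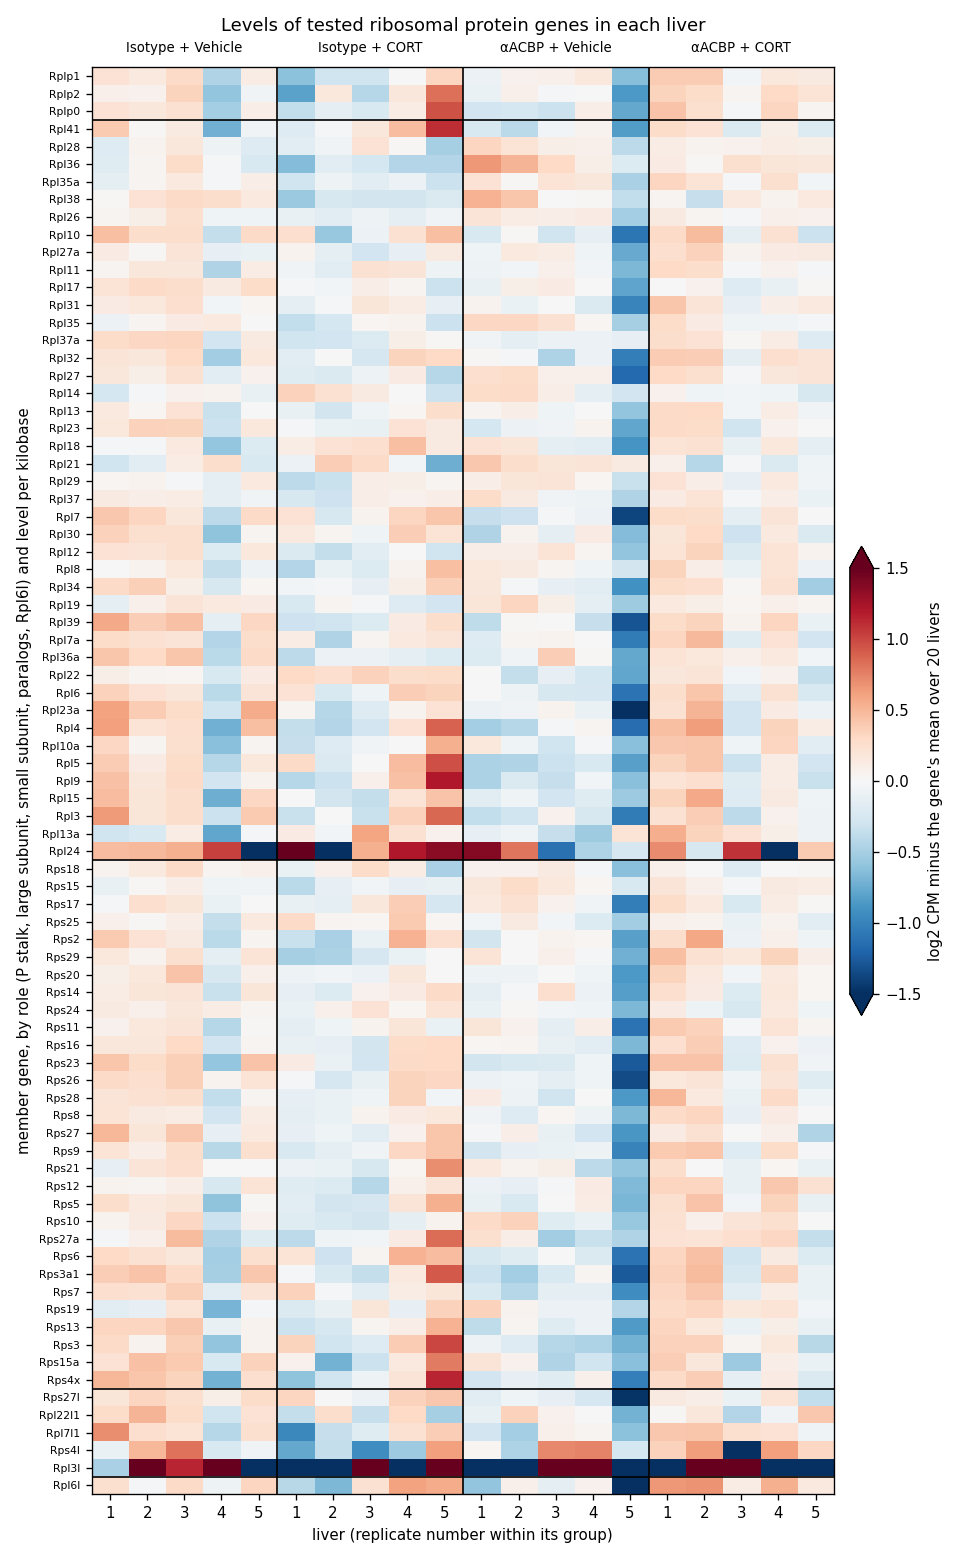
Log2 CPM of 81 of the tested genes minus each gene's mean over the 20 livers (colour, from -1.5 to 1.5), with genes in rows by role and livers in columns by group. Replicate 5 of αACBP + Vehicle is below the mean for 79 of the 81 rows, and most rows of 1 liver share a colour.

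**Figure D3:**
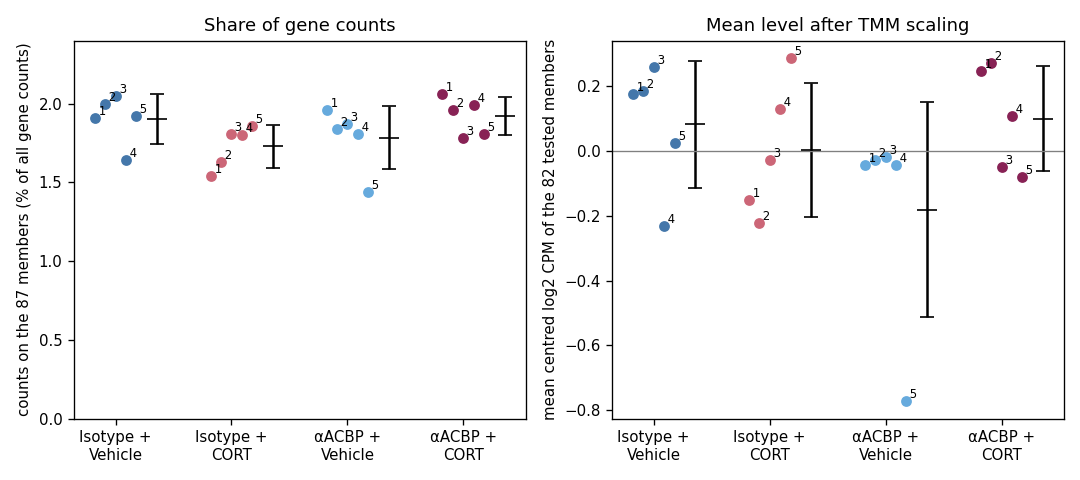
Share of gene counts on the 87 genes in % (left) and mean centred log2 CPM of the 82 tested genes (right) in each liver, with replicate numbers, and the mean ± SD of each group of 5. Replicate 5 of αACBP + Vehicle is at 1.44% and -0.772.

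The spread between livers of a group was small for most members. The within-group SD of log2 CPM had a median of 0.285 over the 82 genes, against 0.49 over all genes tested. It was 0.316 over all tested genes, members included, at or above the lower quartile of CPM of the core subunits. Among single members the SD varied. It was smallest for Rps15 (0.132), and Rpl26 (0.161) was also among the lowest, a gene known to raise the translation of p53. Rpl3l (2.53), Rpl24 (1.73) and Rps4l (0.667) had the largest SD, all with low counts.

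With CORT under isotype, 0 of 82 ribosomal proteins passed edgeR's quasi-likelihood test at an adjusted p of 0.05 or less, where 3.2% of all 16071 genes did. The median log2 fold change was -0.07 (all genes 0.00), with 24 genes higher and 58 lower. At an unadjusted p of 0.05 or less there were 5, all lower, or 6.1% against 15.6% of all genes. DESeq2's Wald test and voom with quality weights each called 1, the large subunit gene Rpl38, lower in both, where they called 5.91% and 3.26% of all genes. Rpl38, known for its part in the translation of Hox messenger RNAs, had the smallest adjusted p. Its levels were 187, 214, 226, 221 and 204 CPM in Isotype + Vehicle and 126, 156, 153, 153 and 159 CPM in Isotype + CORT. The 2 groups did not overlap, which held for 3 of the 82 genes and for 5.04% of all genes. The log2 fold change of -0.50 (SE 0.16, 95% interval -0.82 to -0.17) did not pass the adjustment (adjusted p = 0.0876). Without replicate 5 of αACBP + Vehicle, a liver outside this comparison that enters the common estimate of the spread, it did (-0.52, adjusted p = 0.0393). The 95% intervals of 79 of the 82 genes lay within a log2 fold change of -1 to 1.

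At the ends of this comparison stood mainly genes with few counts. The highest log2 fold changes were those of Rpl3l (0.92, SE 1.73), Rpl24 (0.64, SE 1.01) and Rpl13a (0.42, SE 0.23), and the lowest, beside Rpl38, those of Rps4l (-0.53, SE 0.35) and Rpl36a (-0.41, SE 0.18). None passed the adjustment (adjusted p between 0.227 and 0.887). Markers of immune cells differed between the same groups: the summed level of 8 B cell markers was 58.4 to 87.4 CPM in Isotype + Vehicle and 6.06 to 24.2 CPM in Isotype + CORT, and that of 8 Kupffer cell or macrophage markers 327 to 636 and 122 to 360 CPM. Markers of T or NK cells (12.4 to 22.2 against 1.42 to 6.78 CPM) and dendritic cells (53.8 to 76.8 against 11.3 to 31.6 CPM) had lower ranges too. Much of the dendritic sum was H2-Ab1, 1 of its 6 markers, with means of 46.4 CPM in Isotype + Vehicle and 8.02 CPM in Isotype + CORT. None of these 4 lists of immune markers had a marker at 0 in a group. Their part in the levels of ribosomal proteins was not tested. In RNA of whole liver, fewer cells of a type and less RNA per cell cannot be told apart.

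For αACBP with isotype under vehicle, edgeR's test with all 20 livers gave its only call among the comparisons: 1 of 82, Rpl39, was lower with the antibody (5.14% of all genes were called). The median log2 fold change was -0.26 (all genes -0.02), and 68 of 82 genes were lower. At an unadjusted p of 0.05 or less there were 19, all lower, or 23.2% against 20.6% of all genes. The 1015 genes at or above 141 CPM, members included, had a median of -0.17, and the difference between this and the ribosomal proteins was not tested. Without replicate 5 of αACBP + Vehicle the median of the ribosomal proteins was -0.14 (all genes -0.02), beside -0.12 for the 1014 genes at or above 141 CPM. Then 24 of 83 were higher and 0 were called, where 1.88% of all genes were called. At an unadjusted p of 0.05 or less there were 12, and the share of all genes at that level was not computed for this fit.

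Rpl39 (ENSMUSG00000079641.3, chromosome X from 36345092 to 36349130 on the minus strand of GRCm39) encodes a small protein that lines the tunnel through which the nascent chain leaves the ribosome. Its start window is shown above. Levels were 133, 117, 122, 81.8 and 112 CPM in Isotype + Vehicle and 69.2, 91.1, 89.4, 70.9 and 36.7 CPM in αACBP + Vehicle. The groups overlapped, since replicate 4 of Isotype + Vehicle lay below 2 livers of αACBP + Vehicle, and replicate 5 of αACBP + Vehicle was the lowest of all. The means were 113 ± 19.2 and 71.5 ± 21.9 CPM (SD, n = 5), a log2 fold change of -0.66 (SE 0.20, 95% interval -1.06 to -0.26, adjusted p = 0.0443 from edgeR's test). The call was near the threshold. It was lost without replicate 1, 2, 3 or 5 of Isotype + Vehicle, replicate 1, 4 or 5 of αACBP + Vehicle, replicate 4 of Isotype + CORT, and replicate 1, 3 or 4 of αACBP + CORT, with adjusted p from 0.0509 to 0.133. Without replicate 5 of αACBP + Vehicle the log2 fold change was -0.50 (adjusted p = 0.1). A fit of only the 2 groups compared lost it as well (adjusted p = 0.0631) and called Rpl5 in its place (-0.58, adjusted p = 0.0479).

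Other ribosomal proteins lay close behind Rpl39. Rps7, a small subunit protein that also binds MDM2, was at 216, 212, 233, 161 and 208 CPM in Isotype + Vehicle and at 156, 136, 165, 164 and 95.5 CPM in αACBP + Vehicle, with a log2 fold change of -0.53 (SE 0.17, adjusted p = 0.0623). Rps27l ran from 203 to 239 CPM and from 69.1 to 182 CPM in the same groups, which did not overlap (-0.56, SE 0.19, adjusted p = 0.0856). This held for 4 of the 82 genes, against 7.13% of all genes. Rpl5, which carries the 5S RNA into the large subunit and with Rpl11 binds MDM2, had -0.58 (SE 0.20, adjusted p = 0.0898). Rps3a1 (-0.63) and Rpl3 (-0.60) were among the 3 lowest, with adjusted p of 0.117 and 0.112. Rps3a1 was at 302, 314, 285, 166 and 310 CPM in Isotype + Vehicle and at 188, 165, 200, 240 and 97.6 CPM in αACBP + Vehicle, so that 1 liver of the first group lay within the range of the second. DESeq2's Wald test called 6 genes (Rpl39, Rps7, Rps27l, Rpl5, Rps23 and Rpl7) and voom with quality weights 12, all lower, where they called 9.86% and 11.6% of all genes. Leaving out replicate 4 of Isotype + Vehicle raised the count to 8 (7.99% of all genes called), and leaving out replicate 5 of Isotype + CORT to 3 (7.13%). The highest log2 fold changes were those of Rpl36 (0.31, SE 0.16), Rpl21 (0.28, SE 0.18) and Rpl28 (0.12, SE 0.16), none of them called.

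**Figure D4:**
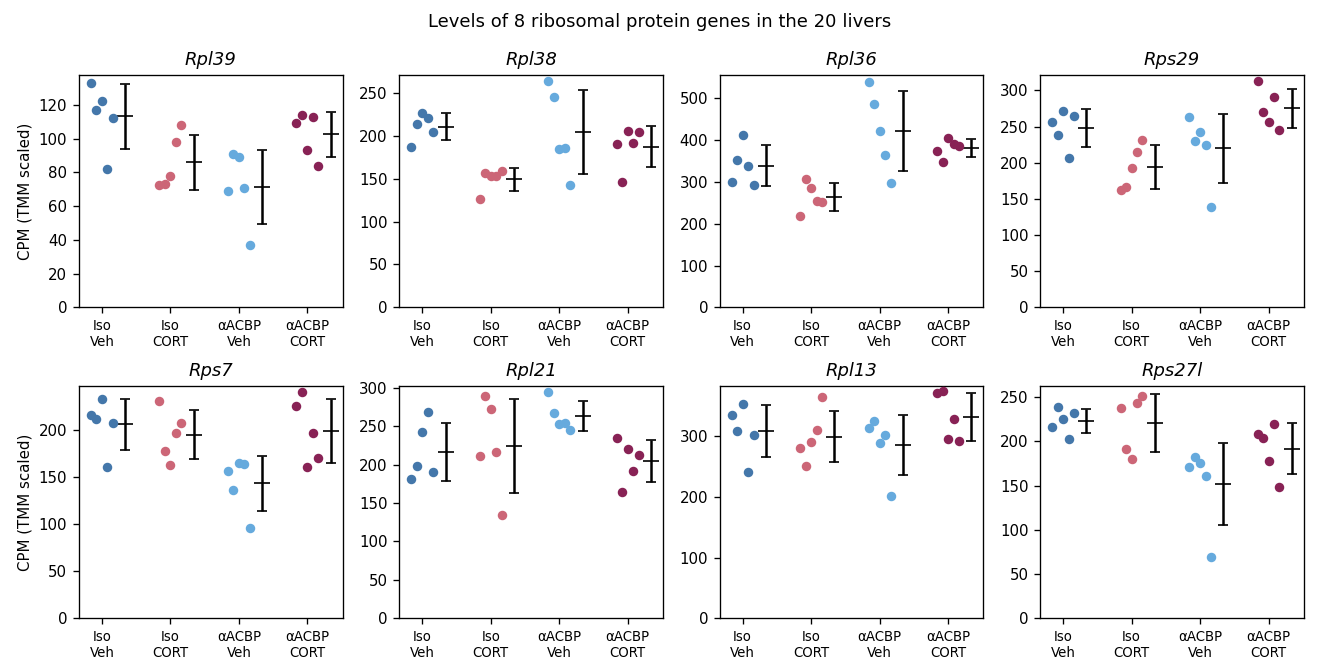
CPM of 8 ribosomal protein genes in each of the 20 livers (points, axes from 0), with the mean ± SD of each group of 5 (Iso, isotype; Veh, vehicle). Rpl38 with CORT under isotype and Rps29 and Rpl36 with the antibody under CORT show groups that do not overlap, and replicate 5 of αACBP + Vehicle is the lowest liver for Rpl39, Rps7, Rpl13 and Rps27l.

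With CORT under αACBP, 0 of 82 were called by edgeR (0.305% of all genes). DESeq2's Wald test and voom with quality weights called 0 as well, where they called 1.93% and 2.53% of all genes. The median log2 fold change was 0.29 (all genes 0.01), and 75 of 82 genes were higher with CORT, including all 30 of the small subunit. At an unadjusted p of 0.05 or less there were 18, all higher, or 22% against 12.7%. Genes at or above 141 CPM had a median of 0.18. Without replicate 5 of αACBP + Vehicle the median was 0.15 (all genes -0.004), beside 0.12 for genes at or above 141 CPM. Then 63 of 83 were higher and 0 were called, where 0.0667% of all genes were called. At an unadjusted p of 0.05 or less there were 5, and the share of all genes at that level was not computed for this fit. Rps7 had the smallest adjusted p (0.212, log2 fold change 0.47, SE 0.17), with levels of 226, 240, 161, 197 and 170 CPM in αACBP + CORT that overlapped those of αACBP + Vehicle. The highest fold changes were those of Rpl3l (0.85, SE 1.73), Rpl6l (0.82, SE 0.32) and Rpl4 (0.63, SE 0.26), and the lowest those of Rpl21 (-0.36, SE 0.18, adjusted p = 0.396), Rpl36 (-0.15, SE 0.16) and Rpl38 (-0.13, SE 0.16). Rpl21 lay between 165 and 235 CPM in αACBP + CORT, below every liver of αACBP + Vehicle. Groups did not overlap for 2 of the 82 genes, against 2.74% of all genes. Rpl4, a large subunit protein with a loop in the exit tunnel, was at 391, 444, 235, 359 and 310 CPM in αACBP + CORT and at 202, 212, 283, 295 and 130 CPM in αACBP + Vehicle, and these groups overlapped. Of the 12 tested genes with under 10% shared words, all 12 were higher with CORT (median 0.37).

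With the antibody under CORT, 0 of 82 were called by edgeR (0.958% of all genes). The median log2 fold change was 0.11 (all genes 0.01), with 55 genes higher and 27 lower. At an unadjusted p of 0.05 or less there were 5, all higher, or 6.1% against 12.5%. DESeq2's Wald test called 2, Rpl36 and Rps29, and voom with quality weights 1, Rps29, where they called 2.79% and 0.772% of all genes. Rpl36, a large subunit protein, was at 218, 306, 285, 253 and 252 CPM in Isotype + CORT and at 373, 347, 404, 389 and 386 CPM in αACBP + CORT. The log2 fold change was 0.53 (SE 0.16, 95% interval 0.20 to 0.87, adjusted p = 0.116). Rps29, a small subunit protein, was at 162, 166, 193, 215 and 232 CPM in Isotype + CORT and at 313, 270, 257, 291 and 246 CPM in αACBP + CORT. Its log2 fold change was 0.51 (SE 0.16, adjusted p = 0.143 by edgeR). For both genes every liver with the antibody was above every liver without it. Groups did not overlap for 7 of the 82 genes, against 3.22% of all genes. Rps4l (0.52, SE 0.35) was the third of the highest, and Rpl24 (-0.67, SE 1.01), Rpl3l (-0.45, SE 1.71) and Rpl41 (-0.34, SE 0.22) were the lowest. B cell markers summed to 10.6 to 57.8 CPM in αACBP + CORT and 6.06 to 24.2 CPM in Isotype + CORT, ranges that overlapped. Kupffer cell or macrophage markers summed to 441 to 600 CPM in αACBP + CORT, above their range in Isotype + CORT. The same held for the markers of T or NK cells (7.69 to 14.4 against 1.42 to 6.78 CPM) and dendritic cells (35.6 to 49.5 against 11.3 to 31.6 CPM). Much of the dendritic sum was again H2-Ab1, with means of 28.5 CPM in αACBP + CORT and 8.02 CPM in Isotype + CORT. The part of these markers in the levels of ribosomal proteins was not tested.

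**Figure D5:**
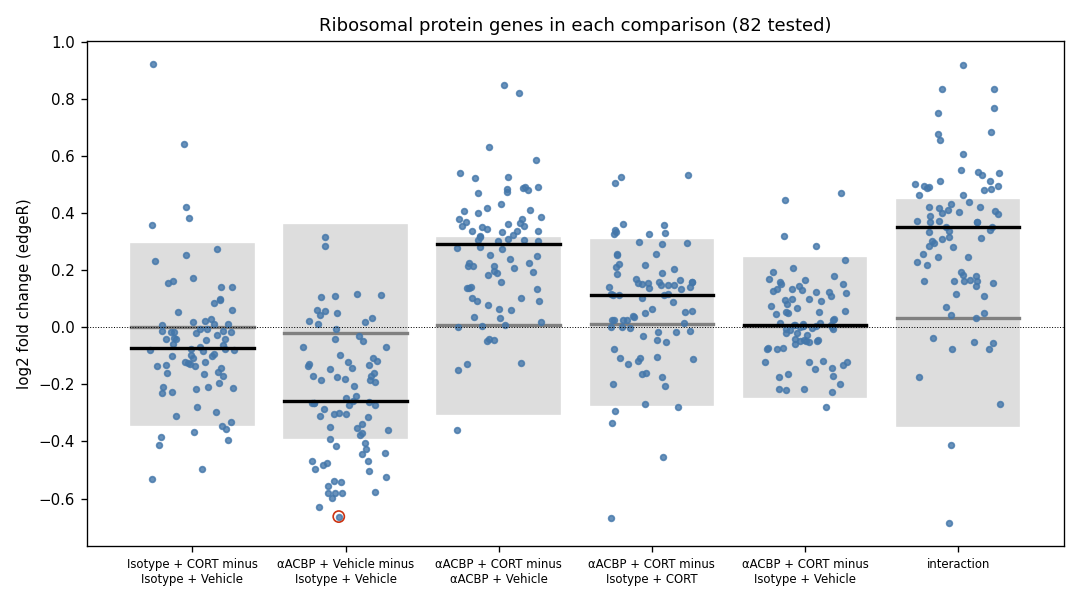
Log2 fold change of the 82 tested genes (points) in the 6 comparisons, with their median (black line), the median (grey line) and the middle 50% (grey box) of all 16071 genes tested, and a ring for the call of Rpl39. The black line lies at -0.26 for the antibody under vehicle and at 0.29 for CORT under αACBP, which share the αACBP + Vehicle group.

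Between αACBP + CORT and Isotype + Vehicle, which differ in both treatments, 0 of 82 genes were called by edgeR (0.0809% of all genes). DESeq2's Wald test and voom with quality weights called 0, where they called 130 and 604 of all 16071 genes. By edgeR's test 0 had an unadjusted p of 0.05 or less, against 7.59% of all genes. The median was 0.01, with 46 higher and 36 lower, and its sign held in 20 of 29 alternative fits. The 95% intervals of 80 genes lay within -1 to 1.

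For the interaction, the difference between the responses to CORT with and without the antibody, 0 of 82 were called by edgeR (0.143% of all genes). DESeq2's Wald test and voom with quality weights called 0, where they called 239 and 66 of all 16071 genes. The median of the interaction was 0.35 (all genes 0.03), and 73 of 82 were above 0. At an unadjusted p of 0.05 or less there were 11, all above 0, or 13.4% against 10.6%. Rpl39 had the smallest adjusted p (0.92, SE 0.28, 95% interval 0.35 to 1.48, adjusted p = 0.161). Genes at or above 141 CPM had a median of 0.125. Leaving out replicate 5 of αACBP + Vehicle gave a median of 0.25 (all genes 0.05) with 71 of 83 above 0, beside 0.095 for genes at or above 141 CPM. The comparisons share groups, so that a liver which stands apart in αACBP + Vehicle enters the antibody under vehicle, CORT under αACBP and the interaction together.

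By role, the stalk genes were near the other subunits. Rplp0, Rplp1 and Rplp2 had log2 fold changes of -0.35, -0.15 and -0.14 for the antibody under vehicle and of 0.49, 0.27 and 0.38 for CORT under αACBP, none called. In Isotype + CORT, Rplp0 ran from 233 to 583 CPM, the latter in replicate 5. Subunits with a known role off the ribosome were not called in any comparison by edgeR with all 20 livers. Other fits called Rpl5, Rpl38 and Rps7, as given above, and voom with quality weights called Rps26 lower for the antibody under vehicle (adjusted p = 0.0462). Rps6, the target of S6 kinase, had -0.42 for the antibody under vehicle (SE 0.21, adjusted p = 0.249), and Rps3, which also acts in DNA repair, -0.43 (SE 0.22). Rps26, mutated like Rps19 in Diamond-Blackfan anaemia, had -0.50 (SE 0.19, adjusted p = 0.12), whereas Rps19 itself had 0.11 (SE 0.17). Rps14, known from the 5q- syndrome, had -0.21 (SE 0.17), Rpl11 -0.16 (SE 0.16) and Rpl26 -0.03 (SE 0.14). All 5 tested paralogs were lower, from -0.56 for Rps27l to -0.01 for Rps4l, and Rpl7l1 (-0.47, SE 0.22) and Rpl22l1 (-0.26, SE 0.20) lay between them.

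Subunits whose names fall outside the rule were not called either, and 4 of them are given here. Rpsa, the laminin receptor homologue of the small subunit, had 0.16 for the antibody under vehicle (SE 0.14) and -0.02 for CORT under αACBP (SE 0.14), at levels between 520 and 769 CPM. Fau and Rack1, a ubiquitin-like fusion and a scaffold on the small subunit, had -0.10 (SE 0.18) and -0.23 (SE 0.16) for the antibody under vehicle, and Rpl36al had -0.16 (SE 0.20).

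Genes that make or control ribosomes were called by edgeR for the antibody under vehicle, where 5.14% of all genes were called. Of 36 tested genes of ribosome biogenesis, 3 were higher with αACBP and 0 lower (median 0.08): Bop1 and Nob1, which act in rRNA processing, rose from 17.4 to 28.3 CPM and from 13.3 to 23 CPM, and Tcof1, a factor of rDNA transcription, from 9.26 to 17.7 CPM (adjusted p of 0.0296, 0.0438 and 0.0432). Of 20 tested genes in the control of translation by mTORC1, 3 were higher and 2 lower (median 0.01). Mtor, the kinase itself, rose from 33.8 to 55.3 CPM, its inhibitor Tsc2 from 70.8 to 109 CPM and Eef2k, the kinase of elongation factor 2, from 8.24 to 15.8 CPM, while Ddit4, an inhibitor of mTORC1, fell from 10.1 to 4.27 CPM and Pdcd4 from 93 to 62 CPM. A further list held 20 genes, translation factors and other proteins, taken as carrying the same pyrimidine tract, which was not checked here. Of these, 2 were lower, Eif3m (36.3 to 21 CPM, adjusted p = 0.0221) and Btf3 (116 to 64 CPM, adjusted p = 0.0252). The median of this list was -0.41, with 18 of 20 lower. Leaving out replicate 5 of αACBP + Vehicle, 0 genes of these 3 lists were called, and the medians were 0.24 for biogenesis, -0.01 for the control by mTORC1 and -0.26 for the list of the pyrimidine tract.

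Lists from the mitochondrion and from cell types had the following values. For the antibody under vehicle, edgeR called 5.14% of all genes. The 76 tested proteins of the mitochondrial ribosome had a median of -0.25 with 3 called lower (Mrps14, Mrpl42 and Mrpl1). The 78 nuclear subunits of the respiratory chain had -0.37 with 3 called lower (Atp5f1, Ndufb6 and Cox7b). The 10 hepatocyte markers had -0.40 with 0 called, and of 7 stellate cell markers 3 were lower (median -0.89). The hepatocyte markers summed to 74200 to 128000 CPM in Isotype + Vehicle and 41900 to 99400 CPM in αACBP + Vehicle, the stellate markers to 145 to 295 and 119 to 145 CPM, with none of either list at 0. Their part in the levels of ribosomal proteins was not tested. For CORT under αACBP the medians were 0.26, 0.31 and 0.35 for the mitochondrial ribosome, the respiratory chain and the hepatocyte markers, with 0 called in each. With replicate 5 of αACBP + Vehicle left out, these medians were 0.16, 0.15 and 0.17. For the antibody under vehicle they were then -0.17, -0.22 and -0.31, with 1 gene of the respiratory chain called, and of the stellate markers 0 were called (median -0.82). In the remaining comparisons 0 genes of the 5 lists outside the cell types were called. Without replicate 5 of αACBP + Vehicle, 1 of the 16 list genes named for the antibody under vehicle was still called, Atp5f1 (-0.90, adjusted p = 0.0393), and all 16 kept their sign, with adjusted p from 0.0585 to 0.167 for the other 15.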

How the data were processed

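Liver RNA of 20 mice was sequenced by the study. According to its methods and the labels, the authors aligned read pairs with HISAT2 and ran HTSeq-count (union mode, non-unique features included), and the deposited values are raw gene counts without normalization. The methods name GRCm39 and the labels mm10, the table has no coordinates, and the annotation release and strand setting are not given in the sources used here. Lines that name no gene (36.6% to 40.4% of pairs were counted on genes, and 42.3% to 45.2% fell on no feature) stayed out of library sizes and tests. All 20 columns were mapped to livers by name.

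The counts were tested in R 4.3.3 with the quasi-likelihood test of edgeR 4.0.16 (TMM, robust estimation, filter by group, Benjamini-Hochberg adjustment over 16071 genes) with the 4 groups as the only term, for 6 comparisons. The study gives no test for these counts. A gene was called at an adjusted p of 0.05 or less, without a limit on the fold change; the study's limit of 1 on the log2 scale is an alternative. Livers of a group are separate mice. Same-numbered livers of different groups are of different mice, and 0 of 30 pairs had correlated deviations over 0.1. Positions, overlaps, spliced lengths (coding sequence with at most 50 untranslated bases per side of the Ensembl canonical transcript) and shared 100-base words come from GENCODE M39 by gene identifier, promoters from RefSeq by symbol.

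Genes named are those called, the 3 highest and 3 lowest in the 4 comparisons of 1 treatment, the 5 highest and lowest levels per kilobase, the stalk, paralogs, subunits with roles off the ribosome or outside the rule, up to 5 called genes of each list, and the 3 largest and smallest SD (2 genes the rule names are not reported here); Rps7, Rps9, Rps16, Rpl13, Rpl14, Rps2, Rps23 and Rpl7 were added after their values were seen. The members and lists were chosen with earlier results of these data known. Alternatives were other normalizations, DESeq2 1.42.0, voom of limma 3.58.1, other filters, a replicate block, each liver left out, and other member lists. The code was tested on simulated data.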

Additional observations from a re-analysis of the deposited data

Results flagged for a closer look

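In 152 groups of 5 livers, over the genes named and 2 values per liver, a liver stood apart from its group in 22 by Dixon's criterion (gap to the nearest liver over 0.71 of the range). For independent values about 1 in 20 groups would pass. These groups share the same 20 livers, the genes move together, and some were named for extreme values, so the 22 cannot be set against that rate. Replicate 5 of αACBP + Vehicle accounted for 8 and replicate 4 of Isotype + Vehicle for 8, all low.

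In replicate 5 of αACBP + Vehicle the mean centred log2 level of the ribosomal proteins was -0.772, the nearest liver being at -0.0435. Its CPM were 365 for Rps18 (nearest 551), 71.6 for Rplp2 (121), 69.1 for Rps27l (161), 229 for Rpl11 (346), 113 for Rps6 (206), 75.9 for Rps26 (176) and 229 for Rpl26 (348). The same liver had the largest share of read pairs that were not aligned (5.75%, against 4.84% or less) and the smallest share of pairs with several alignments (5.92%, against 7.55% or more), and voom gave it the lowest quality weight (0.236). The part of these properties in the levels was not tested.

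Replicate 4 of Isotype + Vehicle was low for Rpl36a (80.7 CPM, nearest 131), Rps3a1 (166, nearest 285), Rplp1 (364, nearest 539), Rplp0 (211, nearest 323), Rpl11 (268, nearest 377), Rps6 (170, nearest 273), Rps14 (212, nearest 289) and Rack1 (216, nearest 268).

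Other values stood apart singly. In Isotype + CORT, replicate 5 was high for Rps4l (22.5 CPM, nearest 11.5) and Rplp0 (583, nearest 326), and replicate 1 was low for Rpl38 (126, nearest 153) and Rps15 (296, nearest 359). In αACBP + CORT, Rps4l was at 4.76 CPM in replicate 3 (nearest 18.1) and Rpl38 at 146 CPM in replicate 2 (nearest 190).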

How the results depend on the processing

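The median log2 fold change of the ribosomal proteins moved by less than the SD of the mean level between livers of a group (0.233) under every alternative run. This SD includes replicate 5 of αACBP + Vehicle and is near the size of the larger medians (such as -0.26 and 0.29). A move below it therefore says little about stability, and the ranges below are given instead. It kept its sign in all fits of 5 comparisons, and in 20 of 29 for αACBP + CORT with Isotype + Vehicle, where it ran from -0.065 to 0.062 with single livers left out. With single livers left out it ran from -0.149 to -0.029 for CORT under isotype, from 0.036 to 0.165 for the antibody under CORT, from 0.152 to 0.337 for CORT under αACBP, from -0.329 to -0.144 for the antibody under vehicle and from 0.251 to 0.431 for the interaction. Over members under 10% shared words it was -0.001 for CORT under isotype, 0.365 for CORT under αACBP and -0.329 for the antibody under vehicle. The count of calls changed more. For the antibody under vehicle (1 in the report) it was 6 with DESeq2's Wald test, 12 with voom and quality weights, 2 with at least 10 counts in every liver, 0 with a fold limit of 1 and 0 to 8 with single livers left out. For CORT under isotype it was 1 with DESeq2 and 1 with voom (5.91% and 3.26% of all genes). With single livers left out it was 0 to 1 there (1.64% to 3.95% of all genes). For the antibody under CORT it was 2 with DESeq2 and 1 with voom (2.79% and 0.772% of all genes). The cause was not tested. With the replicate number as a block the count for the antibody under vehicle was 0, Rpl39 having an adjusted p of 0.0676, and 0 in the other comparisons; the numbers mark different mice and share only a number (correlations between -0.096 and 0.0856 in 30 pairs). All genes called numbered 567 in place of 826 under this block. For the interaction no fit with only the groups compared was run. All genes called changed by more than 1.5 times with DESeq2 (949 in place of 514, 449 in place of 154, 310 in place of 49, 1585 in place of 826, 130 in place of 13 and 239 in place of 23, in the order of the report's comparisons from CORT under isotype, the antibody under CORT, CORT under αACBP, the antibody under vehicle, both and the interaction). With voom they were 407 for CORT under αACBP, 1867 for the antibody under vehicle, 604 for both and 66 for the interaction, and with only the groups compared 319 for CORT under isotype, 28 for the antibody under CORT and 135 for both.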

Other observations

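Long and short transcripts of core subunits differed in their spread and levels. Over the 76 core subunits, whose trimmed spliced lengths run from 241 to 1360 bases, the 19 longest (727 bases or more) had a median within-group SD of log2 CPM of 0.352 and the 19 shortest (460 bases or less) of 0.282. In replicate 5 of Isotype + CORT the longest were at a mean centred level of 0.542 and the shortest at 0.171, and in replicate 4 of Isotype + Vehicle at -0.45 and -0.211. In replicate 5 of αACBP + Vehicle they were at -0.852 and -0.731. Its 4 group mates also had the longest below the shortest, from -0.139 to -0.0918 for the longest and from -0.036 to 0.0493 for the shortest. For the antibody under vehicle the median log2 fold change was -0.41 for the longest and -0.19 for the shortest, and for CORT under isotype -0.01 and -0.16. These values are descriptions across genes, which are not independent replicates, and length was chosen after the data had been seen.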
